A study of Mus musculus with 6 samples.

Results

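The transcripts described here are those of 8 enzymes of bile acid synthesis (Cyp7a1, Cyp8b1, Cyp27a1, Cyp7b1, Hsd3b7, Akr1d1, Amacr and Baat) and of Fgfr4 and Klb, the receptor and co-receptor of the hormone that restrains this synthesis. They were chosen by gene symbol, and all 10 were found among the 22851 genes of the deposited matrix. The livers were those of C57BL/6J mice, an inbred strain, all male and on a high-fat diet. The treated animals received ONX-0914, an inhibitor of the immunoproteasome subunit PSMB8, under the skin (10 mg/kg on alternate days over 6 weeks), and the others received vehicle. Each group had 3 libraries, numbered 1, 3 and 4 in the ONX-0914 group (here the treated libraries) and 1, 2 and 4 in the vehicle group. The study's design text gives 2 biological replicates per group, so p-values here cover only the spread among libraries, which may in part be technical. All groups were fed the high-fat diet, and livers on a standard diet were not analysed here.

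Hepatocytes make bile acids from cholesterol. In the classical pathway CYP7A1 sets the rate by adding a hydroxyl group at carbon 7 of cholesterol, while in the alternative pathway CYP27A1 oxidises the side chain and CYP7B1 then hydroxylates the ring. HSD3B7 and AKR1D1 remodel the ring in both pathways, and CYP8B1 directs the product towards cholic acid. AMACR inverts the side chain ahead of its shortening in peroxisomes, and BAAT joins the finished acid to taurine or glycine. Bile acids returning to the ileum induce FGF15, which reaches hepatocytes, binds FGFR4 together with β-Klotho, the product of Klb, and lowers Cyp7a1 transcription.

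With ONX-0914 the transcripts of Akr1d1, Cyp7a1, Cyp8b1, Hsd3b7, Klb and Amacr fell, that of Cyp7b1 rose, and those of Cyp27a1, Baat and Fgfr4 did not pass the test. The falls of Akr1d1, Cyp8b1 and Hsd3b7 passed under each of the 18 alternative settings tried. That of Amacr (log2 fold change -0.67) was close to the shift of the median gene (-0.64), and that of Cyp7a1 did not pass under median-ratio scaling or after length correction (both described below). The rise of Cyp7b1 passed in only 2 of the 6 fits that left out a library. Genes were tested with limma, a linear model that shares information on spread across genes, on log2(FPKM + 1), where FPKM is the authors' expression value per kilobase of transcript, adjusted for sequencing depth. A gene was called at a Benjamini-Hochberg adjusted p under 0.05 over the 10743 genes with FPKM above 1 in at least 3 libraries, which included all 10. Of the 10 described, 6 passed as lower and 1 as higher, against 43.5% of all genes tested called lower and 2.56% called higher.

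Genes in general were shifted downwards. The median gene had a log2 fold change (ONX-0914 over vehicle) of -0.64, with 4673 genes called lower and 275 higher. Under median-ratio scaling, where a library is divided by its typical gene-wise ratio to the geometric mean of all libraries, the median gene was at -0.01, with 1528 genes lower (14.2%) and 1481 higher (13.8%). Treated libraries also carried less of long transcripts. The median difference from the vehicle mean was taken for the 25% of genes with the longest transcripts and for the 25% with the shortest. The first minus the second was -0.93, -0.25 and -0.99 on the log2 scale in treated libraries 1, 3 and 4, against 0.04, -0.0059 and -0.03 in vehicle libraries 1, 2 and 4. After a length correction, which subtracts the smooth trend of each library's differences over transcript length, 1247 genes were lower (11.6%) and 1025 higher (9.54%), with the median gene at 0.02. On the first principal component, which held 77.3% of the variance, treated libraries 1, 3 and 4 scored 73.9, 10.6 and 67.8, and vehicle libraries 1, 2 and 4 scored -56.1, -49.1 and -47.2, so treated library 3 stood apart from the other treated ones. FPKM summed to between 1041391 and 1247789 per treated library and between 993264 and 1074027 per vehicle library, and as no read totals are given the absolute depth is unknown. The marker counts that follow are as deposited, where 43.5% of all genes tested were called lower and 2.56% higher. All 18 hepatocyte markers were tested, 6 called lower and 2 higher, and their summed level was 93601 to 126756 FPKM in treated livers and 113985 to 119288 FPKM in vehicle livers. Under median-ratio scaling 1 hepatocyte marker was lower and 5 were higher, where 14.2% and 13.8% of all genes were called. Markers of other cells also moved. All 12 endothelial markers fell, their summed level being 26.0 to 49.2 FPKM in treated livers and 183.9 to 189.5 FPKM in vehicle livers. Lower too were 8 of 11 tested macrophage markers (summed 609.6 to 998.7 FPKM in treated and 1162 to 1784 FPKM in vehicle livers) and 8 of 12 stellate cell and fibroblast markers (88.7 to 195.1 FPKM in treated and 360.8 to 435.5 FPKM in vehicle livers). Under median-ratio scaling 10 endothelial, 4 macrophage and 5 stellate cell and fibroblast markers were lower and none higher. None of the 7 tested lymphocyte and neutrophil markers was called, and their sums ranged from 174 to 4347 FPKM in treated livers and from 283 to 1707 FPKM in vehicle livers. Without treated library 3 the calls were 1 lower and 4 higher, where 60.6% and 6.89% of all genes were called. Their part in the results was not tested, and in whole liver fewer cells of a type and less RNA per cell cannot be told apart.

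The first step of the classical pathway was lower in all treated libraries, with a wide spread in both groups. Cyp7a1, on chromosome 4 from 6265612 to 6275633 of GRCm38, was at 9.95, 4.33 and 25.3 FPKM in treated libraries 1, 3 and 4, against 35.3, 52.9 and 109 FPKM in vehicle libraries 1, 2 and 4. The groups did not overlap, but the highest treated library stood close to the lowest vehicle library, and the lowest value of all was that of treated library 3. The log2 fold change was -2.38 (SE 0.57, limma adjusted p = 0.0101). Under median-ratio scaling Cyp7a1 was at -1.61 and no longer passed (adjusted p = 0.105), nor did it after length correction (-1.51, adjusted p = 0.147). Under median-ratio scaling the levels were 14.3, 4.50 and 37.8 in treated libraries 1, 3 and 4 and 25.2, 39.6 and 85.5 in the vehicle libraries, and the groups overlapped. Without treated library 3 it was at -1.82 (adjusted p = 0.011).

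Cyp8b1, which decides the balance between cholic acid and the other primary bile acids, is a gene of 1 exon on chromosome 9 from 121914356 to 121916305. It was at 37.0, 57.3 and 51.9 FPKM in treated libraries 1, 3 and 4, against 256, 197 and 237 FPKM in vehicle libraries 1, 2 and 4. Every treated library lay far below every vehicle library, and the treated mean was 21.2% of the vehicle mean. The log2 fold change was -2.23 (SE 0.22, limma adjusted p = 0.00102), and it stayed called at -1.44 under median-ratio scaling (adjusted p = 0.00757) and at -1.74 after length correction (adjusted p = 0.00355).

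Akr1d1, the 5β-reductase that bends the steroid ring, had the lowest fold change of the 10 genes. The gene lies on chromosome 6 from 37530173 to 37568815, and its values were 6.55, 16.4 and 13.1 FPKM in treated libraries 1, 3 and 4, against 95.1, 108 and 128 FPKM in vehicle libraries 1, 2 and 4. The groups were widely separated, the treated mean being 10.9% of the vehicle mean. The log2 fold change was -3.17 (SE 0.31, limma adjusted p = 0.000986), and only 0.261% of the genes tested had a lower one. It was -2.40 under median-ratio scaling (adjusted p = 0.00475) and -2.48 after length correction (adjusted p = 0.00309). Treated library 3 alone against vehicle gave -2.66 (adjusted p = 0.00123), with the spread taken from the vehicle libraries.

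The RefSeq promoter table, of build GRCm38.p6, held windows for 6 of the 10 genes (Cyp8b1, Cyp27a1, Hsd3b7, Akr1d1, Fgfr4 and Klb). Those of Akr1d1 and Cyp8b1 are shown because these genes had the lowest fold changes among the 6. Each is the 250 bases before the annotated start, with capitals marking matches on either strand to 1 of 3 motifs: TCAAGG, the core element of NR5A2, CAAAGTC, a site of HNF4A, and TATAAA, the TATA box. Windows are 5′ to 3′ along the gene, at chr6:37529923-37530172 on the plus strand for Akr1d1 and chr9:121916306-121916555 on the minus strand for Cyp8b1.
Akr1d1: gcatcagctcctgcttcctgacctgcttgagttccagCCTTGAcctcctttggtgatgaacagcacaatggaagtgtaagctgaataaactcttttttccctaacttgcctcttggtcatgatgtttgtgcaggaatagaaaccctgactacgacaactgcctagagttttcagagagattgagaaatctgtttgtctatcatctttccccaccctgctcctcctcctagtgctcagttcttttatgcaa
Cyp8b1: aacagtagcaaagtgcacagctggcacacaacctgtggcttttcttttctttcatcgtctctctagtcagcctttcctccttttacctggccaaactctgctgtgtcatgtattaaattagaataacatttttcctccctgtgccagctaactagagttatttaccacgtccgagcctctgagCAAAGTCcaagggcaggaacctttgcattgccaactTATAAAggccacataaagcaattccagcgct
The Cyp8b1 window held CAAAGTC starting 67 bases before the start and TATAAA starting 31 bases before it, while the Akr1d1 window held TCAAGG on the opposite strand, 213 bases before the start. The other 4 windows held none of these letters. Among 32851 windows of the same length, 3.84% held CAAAGTC, 12.4% held TATAAA and 12.5% held TCAAGG, with no overlap between the matches shown.

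Hsd3b7, the dehydrogenase that acts on the ring straight after 7-hydroxylation in both pathways, is on chromosome 7 from 127800604 to 127803802. It was at 74.3, 137 and 101 FPKM in treated libraries 1, 3 and 4, against 321, 265 and 292 FPKM in vehicle libraries 1, 2 and 4. The groups did not overlap, and treated library 3 was the treated library nearest to vehicle. The log2 fold change was -1.52 (SE 0.24, limma adjusted p = 0.0025), with -0.72 under median-ratio scaling (adjusted p = 0.0418) and -1.07 after length correction (adjusted p = 0.0146). In GENCODE M21 a same-strand gene model, Gm49388, covers 62.0% of the Hsd3b7 exon bases and an opposite-strand model, 9430064I24Rik, covers 62.4%. Neither model was listed under that name in the deposited matrix, and the annotation used for counting is not named. Hsd3b7 stays uncertain as far as the authors' counting could divide reads among these models. No other gene of the 10 shared exon bases with another gene model.

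Of the alternative pathway, the second enzyme passed the test and the first did not. Cyp27a1, the mitochondrial side-chain oxidase, on chromosome 1 from 74713574 to 74737892, was at 161, 242 and 197 FPKM in treated libraries 1, 3 and 4, against 275, 316 and 209 FPKM in vehicle libraries 1, 2 and 4. The groups overlapped, and the log2 fold change of -0.41 (95% interval -0.93 to 0.11, limma adjusted p = 0.165) did not pass. It had the opposite sign, 0.39, under median-ratio scaling (adjusted p = 0.228), and passed as lower without treated library 3 (-0.56, adjusted p = 0.0441).

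Cyp7b1, the oxysterol 7-hydroxylase, on chromosome 3 from 18071950 to 18243338, was at 125, 403 and 212 FPKM in treated libraries 1, 3 and 4, against 79.8, 147 and 80.9 FPKM in vehicle libraries 1, 2 and 4. Treated library 3 was the highest library by far, and treated library 1 lay below vehicle library 2, so the groups overlapped. The log2 fold change was 1.16 (SE 0.41, limma adjusted p = 0.0424), which exceeded that of 99.2% of the genes tested. It was 1.95 under median-ratio scaling (adjusted p = 0.0125) and was 1.72 after length correction (adjusted p = 0.0192). The call was lost without treated library 3 (0.72, adjusted p = 0.0745), without treated library 4 (1.18, adjusted p = 0.105), without vehicle library 1 (1.01, adjusted p = 0.132) and without vehicle library 4 (1.02, adjusted p = 0.124).

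**Figure D1:**
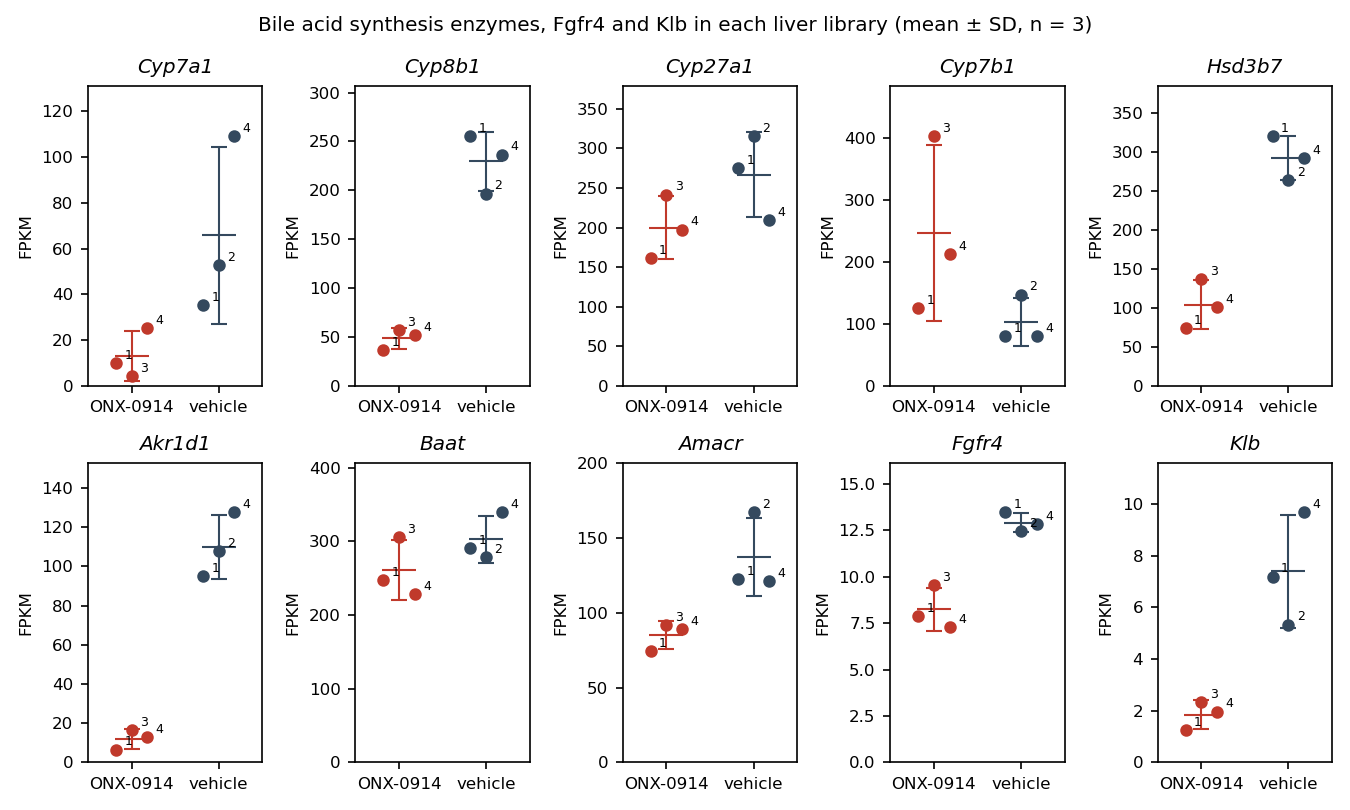
FPKM (vertical axes from 0) of each of the 10 genes in the 3 ONX-0914 and 3 vehicle libraries; points are libraries with their numbers, horizontal bars means and error bars SD. Akr1d1, Cyp8b1 and Hsd3b7 show widely separated groups, Cyp7b1 runs the other way with ONX-0914 3 highest at 403 FPKM, and Cyp27a1, Baat and Cyp7b1 overlap.

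Amacr, the racemase of the side-chain steps, on chromosome 15 from 10981756 to 10996626, was at 74.6, 91.8 and 89.0 FPKM in treated libraries 1, 3 and 4, against 123, 167 and 121 FPKM in vehicle libraries 1, 2 and 4. All treated libraries were below all vehicle libraries, and the log2 fold change was -0.67 (SE 0.21, limma adjusted p = 0.0273). The median gene was at -0.64 on the same scale, and Amacr was at 0.12 under median-ratio scaling (adjusted p = 0.706) and at -0.0075 after length correction (adjusted p = 0.982). The call was also lost on leaving out treated library 1, treated library 4, vehicle library 1, vehicle library 2 or vehicle library 4, with adjusted p = 0.0692, 0.0608, 0.0656, 0.134 and 0.0577 in limma.

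Baat, the conjugating enzyme of the last step, on chromosome 4 from 49489422 to 49506557, was at 247, 306 and 228 FPKM in treated libraries 1, 3 and 4, against 291, 278 and 339 FPKM in vehicle libraries 1, 2 and 4. Treated library 3 lay above vehicle library 1 and vehicle library 2, and the log2 fold change of -0.22 (95% interval -0.66 to 0.22, limma adjusted p = 0.366) did not pass. Its sign turned under median-ratio scaling (0.58, adjusted p = 0.0721) and after length correction (0.27, adjusted p = 0.289).

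Of the hormone receptor and its co-receptor, the co-receptor passed the test. Fgfr4, a receptor tyrosine kinase gene on chromosome 13 from 55152640 to 55168759, was at 7.89, 9.55 and 7.29 FPKM in treated libraries 1, 3 and 4, against 13.5, 12.5 and 12.8 FPKM in vehicle libraries 1, 2 and 4. The groups did not overlap, yet the log2 fold change of -0.60 (95% interval -1.12 to -0.08, limma adjusted p = 0.0593) missed the threshold. It passed without treated library 3 (-0.70, adjusted p = 0.00751) and was at 0.13 under median-ratio scaling (adjusted p = 0.626).

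Klb, on chromosome 5 from 65348314 to 65384007, was at 1.25, 2.34 and 1.97 FPKM in treated libraries 1, 3 and 4, against 7.19, 5.33 and 9.67 FPKM in vehicle libraries 1, 2 and 4. Every treated library was under the lowest vehicle library, and the treated mean was 25.1% of the vehicle mean. The log2 fold change was -1.54 (SE 0.29, limma adjusted p = 0.00422), a size that depends on the amount added before the logarithm for a gene this low, being -1.94 with 0.1 added and -0.84 with 5 added, and it passed with each. Klb passed under median-ratio scaling (-0.93, adjusted p = 0.0328) and not after length correction (-0.73, adjusted p = 0.0694).

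**Figure D2:**
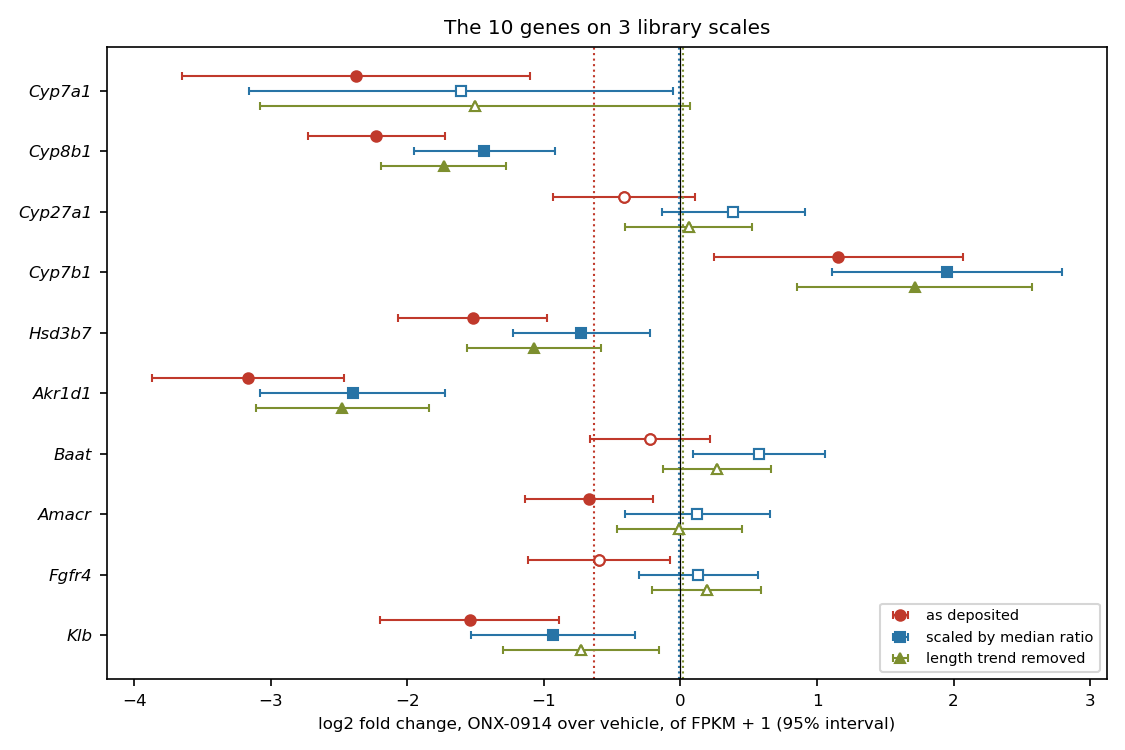
Log2 fold change of FPKM + 1 with 95% interval (horizontal axis) for each gene as deposited, under median-ratio scaling and after length correction; open symbols did not pass at adjusted p 0.05, and dotted lines mark the median gene on each scale (-0.64, -0.01 and 0.02). Akr1d1, Cyp8b1 and Hsd3b7 are filled and below 0 and Cyp7b1 filled and above 0 on all 3 scales, while Cyp27a1, Baat and Fgfr4 are open on all 3.

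Counted without a model, 7 of the 10 genes had all treated libraries below all vehicle libraries (Akr1d1, Cyp8b1, Hsd3b7, Klb, Cyp7a1, Amacr and Fgfr4) and 0 the reverse, where 53.5% of the genes tested were separated downwards and 4.93% upwards. The median log2 fold change of the 10 was -1.095 (-0.30 under median-ratio scaling and -0.37 after length correction). Under median-ratio scaling 4 of the 10 were lower and 1 higher, where 14.2% and 13.8% of all genes were called. After length correction 3 were lower and 1 higher, where 11.6% and 9.54% of all genes were called. Without treated library 3 the counts were 8 lower and 0 higher, where 60.6% and 6.89% of all genes were called. With the spread taken from the vehicle libraries, treated library 3 alone gave 5 lower and 1 higher, with 27.9% and 2.88% of all genes called.

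The order of the levels, which FPKM allows per kilobase, also differed. These values keep the length trend described above, and the longest transcript of each of the 10 genes ran from 1828 to 4172 bases. The part of that trend in the order was not tested. In treated livers Baat came first at 261 ± 40.5 FPKM, then Cyp7b1 at 247 ± 142, Cyp27a1 at 200.04 ± 40.3, Hsd3b7 at 104 ± 31.6, Amacr at 85.1 ± 9.22, Cyp8b1 at 48.7 ± 10.5, Cyp7a1 at 13.2 ± 10.9, Akr1d1 at 12.03 ± 5.02, Fgfr4 at 8.24 ± 1.17 and Klb at 1.85 ± 0.554 (SD, n = 3). In vehicle livers Baat also led at 303 ± 32.1 FPKM, before Hsd3b7 at 293 ± 28.0, Cyp27a1 at 267 ± 53.7, Cyp8b1 at 229.6 ± 30.03, Amacr at 137 ± 26.0, Akr1d1 at 110.1 ± 16.4, Cyp7b1 at 103 ± 38.8, Cyp7a1 at 65.8 ± 38.6, Fgfr4 at 12.9 ± 0.498 and Klb at 7.40 ± 2.18 (SD, n = 3). Neighbours overlapped in range except Cyp27a1 and Hsd3b7, Amacr and Cyp8b1, Cyp8b1 and Cyp7a1, and Fgfr4 and Klb in treated livers. In vehicle livers the exceptions were Cyp8b1 and Amacr, Cyp7a1 and Fgfr4, and Fgfr4 and Klb. Cyp7b1 ranked 3, 1 and 2 among the 10 in treated libraries 1, 3 and 4, against 7, 6 and 8 in vehicle libraries 1, 2 and 4. Hsd3b7 ranked 5, 4 and 4 in the treated and 1, 3 and 2 in the vehicle libraries.

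The levels of 2 genes were also set against each other within each library. In all, 5 were compared by exact permutation over libraries, two-sided, where 3 against 3 libraries cannot give a p below 0.1. The log2 ratio of Cyp7a1 to Cyp7b1, classical against alternative 7-hydroxylation, was -3.53, -6.25 and -3.02 in treated libraries 1, 3 and 4, against -1.16, -1.46 and 0.43 in vehicle libraries 1, 2 and 4. The groups did not overlap, and the difference of -3.53 had the smallest p possible (exact p = 0.1, 0.167 adjusted over the 5). That difference was the largest of the 5 in size, with treated library 3 at its lower end. It was -2.54 without that library and -3.22 after length correction.

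Within the alternative pathway the log2 ratio of Cyp7b1 to Cyp27a1 averaged 0.16 ± 0.55 in treated and -1.41 ± 0.34 in vehicle livers (SD, n = 3 each), a difference of 1.57 with no overlap (exact p = 0.1, adjusted 0.167). For Klb to Fgfr4 it was -1.71 ± 0.25 in treated and -0.76 ± 0.36 in vehicle livers (SD, n = 3 each), a difference of -0.95, again with no overlap (exact p = 0.1, adjusted 0.167). With Klb this low the size of that difference depended on the amount added, at -1.29 with 0.1 and -0.40 with 5. Thus the co-receptor transcript was lower than the receptor transcript by more in each treated library than in any vehicle library. The ratio of Cyp8b1 to Cyp7a1 overlapped widely, at 2.08 ± 1.25 in treated and 1.94 ± 0.86 in vehicle livers (SD, n = 3 each, exact p = 1). So did that of Baat to Slc27a5, the ligase gene of the step before conjugation, at -0.71 ± 0.58 in treated and -0.62 ± 0.20 in vehicle livers (SD, n = 3 each, exact p = 0.9).

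**Figure D3:**
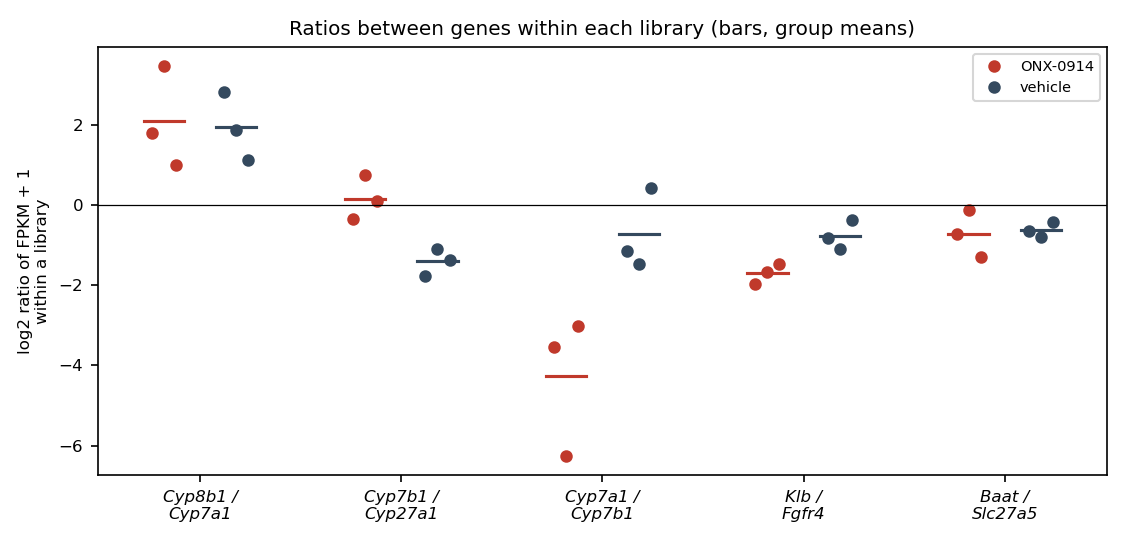
Log2 ratio of FPKM + 1 between 2 genes within each library (vertical axis) for the 3 ONX-0914 and 3 vehicle libraries; points are libraries and bars group means. Cyp7b1 to Cyp27a1, Cyp7a1 to Cyp7b1 and Klb to Fgfr4 separate the groups, whereas Cyp8b1 to Cyp7a1 and Baat to Slc27a5 overlap.

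Among 20 other genes of bile acid synthesis 18 could be tested, of which 5 fell and none rose, where 43.5% of all genes tested were called lower. The median log2 fold change was -0.40, against -0.64 over all genes. Without treated library 3 there were 9 lower and none higher, where 60.6% of all genes were lower. Under median-ratio scaling there were 2 lower and 1 higher (Cyp2c70, a hydroxylase behind the muricholic acids of mice, named after its values were seen, at 1.23, adjusted p = 0.0171), where 14.2% and 13.8% of all genes were called. The median was then 0.38. The 2 lower were Abcd3, a peroxisomal membrane transporter that takes in bile acid precursors, and Akr1c14, a 3α-hydroxysteroid dehydrogenase. Abcd3 was at 19.2, 64.7 and 27.4 FPKM in treated libraries 1, 3 and 4, against 325, 257 and 233 FPKM in vehicle libraries 1, 2 and 4 (log2 fold change -3.01, limma adjusted p = 0.0015). Akr1c14 was at 8.87, 36.1 and 24.4 FPKM in the treated and 155, 160.05 and 153 FPKM in the vehicle libraries (log2 fold change -2.90, adjusted p = 0.00184). Akr1c14 belongs to a family of related genes, and whether the counting split reads among them was not tested. Both genes fell without overlap between groups, as did Cyp39a1, another oxysterol 7-hydroxylase (-2.05, adjusted p = 0.0146), and Scp2, whose longer product is the thiolase of side-chain shortening (-0.99, adjusted p = 0.0251). Of all genes tested 53.5% were separated downwards. Cyp39a1 was at 0.47, 5.46 and 0.58 FPKM in treated libraries 1, 3 and 4, against 13.1, 6.37 and 9.30 FPKM in vehicle libraries 1, 2 and 4. Treated library 3 alone against vehicle gave -0.66 for Cyp39a1 and -0.32 for Scp2. Cyp39a1 and Scp2 did not pass under median-ratio scaling (adjusted p = 0.0535 and 0.633).

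Of 16 regulators of bile acid synthesis 9 fell and none rose, with a median of -0.98, where 43.5% of all genes tested were lower. There were 3 lower and none higher under median-ratio scaling (14.2% of all genes lower), with a median of -0.48, and 1 and none after length correction (11.6% of all genes lower). Without treated library 3 there were 14 and none (60.6% of all genes lower). Rxra, the partner of the bile acid receptor on DNA, fell on all 3 scales and was at 2.31, 11.1 and 2.86 FPKM in treated libraries 1, 3 and 4, against 41.4, 46.7 and 49.95 FPKM in vehicle libraries 1, 2 and 4 (log2 fold change -3.13, limma adjusted p = 0.0018). Nr1h4, the bile acid receptor FXR itself, did not pass (-0.56, adjusted p = 0.0794), nor did Nr0b2, the repressor SHP that FXR induces (-0.31, adjusted p = 0.546). Nr0b2 was at 12.8, 42.5 and 12.9 FPKM in treated libraries 1, 3 and 4, against 21.5, 24.1 and 27.4 FPKM in vehicle libraries 1, 2 and 4. It was thus highest in treated library 3 and lowest in the other treated libraries.

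In 2 known activators of Cyp7a1 or Cyp8b1 transcription the treated libraries differed among themselves. Hnf4a was at 6.26, 40.7 and 5.94 FPKM in treated libraries 1, 3 and 4, against 58.5, 51.7 and 68.6 FPKM in vehicle libraries 1, 2 and 4 (log2 fold change -2.23, limma adjusted p = 0.0154). Nr5a2, which encodes LRH-1, was at 1.22, 8.06 and 1.10 FPKM in the treated and 10.2, 8.96 and 7.77 FPKM in the vehicle libraries (-1.51, adjusted p = 0.037). In both genes treated library 3 was the highest treated library. Their part in the levels of the 10 genes was not tested. Neither passed under median-ratio scaling (adjusted p = 0.065 and 0.156). Foxo1, a transcription factor of the insulin response, fell too (-1.55, adjusted p = 0.0072).

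Of 23 genes of FGF receptor signalling, a list that holds Fgfr4 and Klb, 18 could be tested, of which 13 fell and none rose, with a median of -1.25, where 43.5% of all genes tested were lower. Under median-ratio scaling there were 9 lower and none higher (14.2% of all genes lower), and after length correction 4 and 1 (11.6% lower and 9.54% higher). Fgf15, made in the ileum, was listed at 0 in all 6 libraries, as was Kl, the other Klotho co-receptor, named after its values were seen. Fgf1, a ligand that binds FGFR4 and other receptors, was at 3.86, 4.91 and 3.00 FPKM in treated libraries 1, 3 and 4, against 27.5, 31.1 and 31.8 FPKM in vehicle libraries 1, 2 and 4 (log2 fold change -2.68, limma adjusted p = 0.000914). Its fall passed on all 3 scales, as did those of Ptpn11, the gene of the phosphatase SHP2 downstream of the receptor (-2.26, adjusted p = 0.00209), and of the sister receptor Fgfr3 (-1.62, adjusted p = 0.00201). Shc1, an adaptor gene, fell as deposited (-1.74, adjusted p = 0.00942) and not after length correction (adjusted p = 0.0537).

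Of 14 transporters of bile acids and bile lipids 12 could be tested, of which 8 fell and none rose, with a median of -1.16, where 43.5% of all genes tested were lower. Under median-ratio scaling there were 3 lower and none higher (14.2% of all genes lower), with a median of -0.44. Slc10a1, the main sodium-dependent uptake carrier of bile acids in hepatocytes, was at 130, 261 and 155 FPKM in treated libraries 1, 3 and 4, against 597, 644 and 608 FPKM in vehicle libraries 1, 2 and 4 (log2 fold change -1.82, limma adjusted p = 0.00185). The sodium-independent carrier gene Slco1b2 fell too (-2.47, adjusted p = 0.00255), and both passed on all 3 scales. Abcb11, the canalicular export pump, fell as deposited (-1.38, adjusted p = 0.00689), at -0.59 under median-ratio scaling (adjusted p = 0.0899). Abcg8, which encodes one subunit of the canalicular sterol exporter, fell by 1.78 on the log2 scale (adjusted p = 0.00311).

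**Figure D4:**
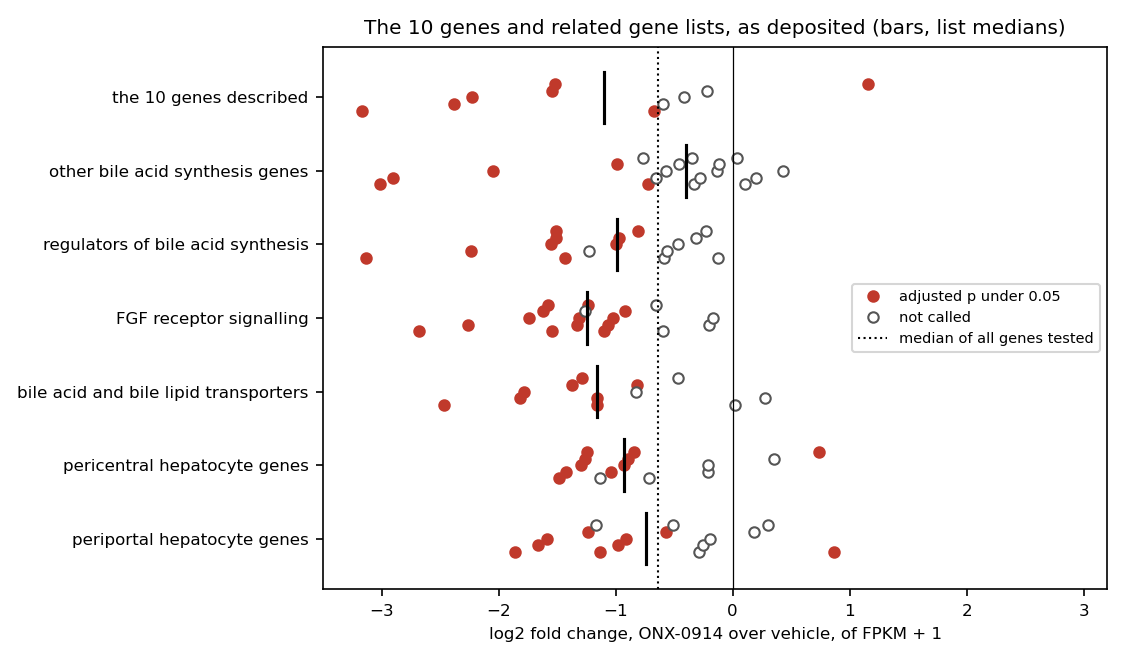
Log2 fold change of FPKM + 1 as deposited (horizontal axis) for each tested gene of the 10 described and of 6 related lists; filled points passed at adjusted p 0.05, bars are list medians and the dotted line is the median of all genes tested (-0.64). Only the other synthesis genes have a median above that line, at -0.40. The 10 genes (-1.095), FGF receptor signalling (-1.25), transporters (-1.16), regulators (-0.98), pericentral genes (-0.93) and periportal genes (-0.74) all lie below it.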

How the data were processed

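Liver RNA was measured in 6 libraries. Per the labels' protocols, RNA was isolated by a TRIzol method and enriched for mRNA, and per the study's design text 150-base paired reads were sequenced. The submitters' processing notes list HISAT2 2.0.1 and featureCounts 1.6.0, beside FastQC 0.11.5, cutadapt 1.11 and edgeR, and GRCm38 and mm10 as builds, giving neither role nor order. The sources used here do not name an annotation. The authors deposited FPKM for 22851 genes. This unit was inferred, since values are fractional and library sums differ, and whether reads or fragments were counted is not stated. Values near 0 carry few reads.

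Genes with FPKM above 1 in at least 3 libraries were tested on log2(FPKM + 1) in R 4.3.3 by limma 3.58.1 (variance trend, unblocked), adjusting p after Benjamini-Hochberg. Fold changes on this scale understate changes of low genes. Simulated data with known changes served to test the fit. They held independent noise and changes of either sign, without a general shift, a length trend or a treated library standing apart. They therefore cannot show how the fit handles those features. For the length trend, each library's difference from the vehicle mean was smoothed with lowess (span 0.5) over the longest protein-coding transcript in GENCODE M21, known for 97.6% of tested genes, which also centres each library. Ratios were differences of log2(FPKM + 1) within a library. Loci are from GENCODE M21 (GRCm38).

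The 10 genes and the 13 other gene lists were chosen with earlier results of these data known. Named are the 10 genes, up to 4 called genes per list by size of change, and Nr1h4, Nr0b2, Nr5a2, Hnf4a and Fgf15. For the genes with the lowest and the highest fold change, named too are the 3 genes of mean FPKM of at least 10 with the nearest profiles. Slc27a5 is named as the partner of a ratio, other genes named outside this rule are marked as such, and values are printed for some of the marker lists only as counts and sums. Alternatives covered pseudocount, filter, scaling, length, block, variance trend and left-out libraries.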

Additional observations from a re-analysis of the deposited data

How the results depend on the processing

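Of 180 fold changes of the 10 genes under 18 alternatives, 144 kept their direction and side of the threshold. A further 22 kept their direction and lost the call, 3 kept it and gained the call, and 11 changed sign. Among these 11, Amacr under median-ratio scaling (0.12, limma adjusted p = 0.706) lost its call as well. Absolute depth is unknown, so low genes such as Klb rest on an unknown number of reads. Genes called lower stayed at 6 under 6 alternatives (both other pseudocounts and filters, equal sums and a robust variance trend) and were 4 under median-ratio scaling or by upper quartile, 7 with the replicate block, and 3 after quantile normalization or after length correction. The count called higher was 0 instead of 1 with 0.1 added, with no filter and with equal sums. Leaving out 1 library gave 5 to 8 lower and 0 to 1 higher. Under median-ratio scaling the log2 fold changes of Cyp27a1, Baat, Amacr and Fgfr4 turned to 0.39, 0.58, 0.12 and 0.13, and by upper quartile those of Cyp27a1 and Baat to 0.20 and 0.39. Fgfr4 was at 0.12 quantile normalized, and Cyp27a1, Baat and Fgfr4 at 0.0595, 0.27 and 0.19 after length correction. Baat was at 0.0209 for treated library 3 on its own over vehicle. The ratio of Cyp8b1 to Cyp7a1 differed by -0.15 with 5 added, by -0.23 after length correction and by -0.53 to 0.69 on leaving out a library, and that of Baat to Slc27a5 by -0.38 to 0.20. The cause of these moves was not tested. By upper quartile 1074 of all 10743 genes tested were higher, and quantile normalized 1118. Genes called lower over all tested were 4328 with 0.1 added, 4899 with 5 added, 5112 with equal sums and 4684 with a robust variance trend. With no filter 4687 of 16087 genes were lower, and with a filter on a mean of at least 1 there were 4441 of 10522. Leaving out a library gave 2590 to 6514 of the 10743 genes lower and 92 to 740 higher.

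The labels do not say that a shared number pairs libraries. Deviations from the group means correlated at 0.0011 for the libraries numbered 1 and at 0.13 for those numbered 4. A replicate block was fitted over these 2 pairs only, which leaves out treated library 3 and vehicle library 2. With it 7 of the 10 genes were lower and 1 higher, and of all 10743 genes tested 5980 were lower and 610 higher. Fgfr4 passed in that fit (-0.72, limma adjusted p = 0.0323). It also passed without a block when only treated library 3 was left out (-0.70, adjusted p = 0.00751). The part of the block in this call was not tested.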

Other observations

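By distance between profiles over the 6 libraries (root mean square of differences in log2(FPKM + 1) from the vehicle mean, among 4743 genes of mean FPKM of at least 10), the genes nearest to Akr1d1 were Csrp1, Rdx and Pctp, at 0.142, 0.222 and 0.247. Pctp, which encodes a phosphatidylcholine transfer protein, was at 4.23, 14.5 and 13.4 FPKM in treated libraries 1, 3 and 4, against 108, 83.4 and 96.7 FPKM in vehicle libraries 1, 2 and 4. Nearest to Cyp7b1 were Mup7, Tff3 and Ang, at 0.241, 0.241 and 0.247. Mup7, of the major urinary protein family, was at 4452, 15159 and 12434 FPKM in treated libraries 1, 3 and 4, against 3710, 6898 and 3267 FPKM in vehicle libraries 1, 2 and 4. Its family shares reads between near-identical copies, so this value is uncertain. As with Cyp7b1, treated library 3 was highest and vehicle library 2 was the highest vehicle library, a likeness that choosing genes by profile favours.

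Counts for genes of the liver zones are given beside all genes tested, of which 43.5% were called lower and 2.56% higher as deposited, and 14.2% and 13.8% under median-ratio scaling. Of 15 tested pericentral genes, from the zone around the central vein, 9 fell and 1 rose, with a median log2 fold change of -0.93 (0 and 2 under median-ratio scaling, with a median of -0.25). Among 16 periportal genes 8 were called lower and 1 higher (median -0.74), while median-ratio scaling gave 2 and 2 (median 0.06). Largest among the pericentral calls were Glul, which encodes glutamine synthetase (-1.48, limma adjusted p = 0.00325), Tbx3 (-1.42), Gulo (-1.295) and Cyp2c37 (-1.26), and among the periportal calls Uox, which encodes urate oxidase (-1.86, adjusted p = 0.00215), Cps1 (-1.66), Cdh1 (-1.59) and Ctsc (-1.24). Cyp1a2 was the pericentral gene that rose, named after its values were seen, at 0.74 (adjusted p = 0.0395). Of 8 tested cholangiocyte markers 2 fell and 1 rose, with a summed level of 82.1 to 130 FPKM in treated and 82.3 to 96.0 FPKM in vehicle livers. Most of that sum was 1 gene, Spp1, named after its values were seen. Spp1 was at 118.5, 67.6 and 89.9 FPKM in treated libraries 1, 3 and 4, against 66.2, 67.8 and 72.6 FPKM in vehicle libraries 1, 2 and 4. Of 8 markers of intestinal epithelium 3 could be tested and 1, Fabp2, fell. Fabp2 was at 52.5, 85.8 and 53.7 FPKM in treated libraries 1, 3 and 4, against 156, 127 and 159 FPKM in vehicle libraries 1, 2 and 4. Slc10a2 and Lgals4, the other tested markers, were at 9.23 to 32.0 and 1.14 to 3.47 FPKM over the 6 libraries. Fabp6 and Cdx2 were listed at 0 in all 6 libraries, like Fgf15. Slc10a2, Lgals4, Fabp6 and Cdx2 were named after their values were seen.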
